A study of Mus musculus with 6 samples.

Results

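The genes described here encode the subunits of the mouse proteasome, together with the activators and assembly chaperones that carry the same names. They were taken as every protein-coding gene of the GENCODE M21 annotation whose symbol begins Psma, Psmb, Psmc, Psmd or Psme followed by a digit, except Psmc3ip. The rule finds 44 genes, of which 43 were listed among the 20121 genes of the deposited tables and passed the filter on low counts, so that all 43 entered the test. Psmb11, the thymus-specific catalytic subunit, was not analysed here. RNA was sequenced from whole hearts of 6 pups on a mixed ICR and C57BL/6 background, taken at postnatal day 14. The mutant group was 3 Myh6-Cre; TRalphaAMI pups, in which Cre driven in cardiomyocytes by Myh6 switches on a knock-in allele encoding a dominant negative thyroid hormone receptor alpha. The control group was 3 TRalphaAMI littermates, which carry the knock-in allele without Cre, so the presence of Cre itself was not controlled for. Whole hearts hold cells in which Myh6 does not drive Cre. Whether the pups were male or female was not analysed here.

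The proteasome is the barrel-shaped protease that degrades proteins tagged with ubiquitin. Its core particle is built of stacked rings, with outer rings of alpha subunits (Psma) that gate the entrance and inner rings of beta subunits (Psmb), a few of which carry the catalytic sites. A regulatory particle caps the core: its base holds the ATPases (Psmc) that unfold substrates, and its lid (Psmd) holds the enzyme that removes ubiquitin chains. Inducible beta subunits can replace the constitutive catalytic ones to form the immunoproteasome, and other caps (Psme) can take the place of the regulatory particle. In the heart, this system removes damaged and surplus contractile proteins, and Nfe2l1 is known as a transcription factor that raises subunit genes together when proteasome activity falls.

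Total counts per library were 45944049 to 48359735 in mutant hearts and 43314706 to 62095277 in control hearts. Mitochondrial transcripts took 16.7% to 18.8% of the counts in mutant hearts and 22.3% to 24.8% in control hearts. Levels are therefore given as counts scaled to library size (CPM) after TMM scaling, which sets the typical gene equal between libraries, and every "lower" or "higher" below is relative to that typical gene. Thra, the gene that carries the knock-in, had 125, 142 and 143 CPM in mutant hearts and 66.8, 81.6 and 81.7 CPM in control hearts. These groups did not overlap, and the log2 difference of 0.83 passed the test (edgeR, adjusted p = 1.01e-04), although counts per gene do not separate the altered from the normal transcript. The cardiomyocyte marker Tnnt2 averaged 8626 ± 334 CPM in mutant hearts and 8899.7 ± 1097 CPM in control hearts (SD, n = 3 each) and did not pass the test. Of the 8 cardiomyocyte markers listed, 4 were lower and 0 higher, among them Tnni3 (log2 −1.27) and Actc1 (−0.30). Their summed level was 37232 to 38757 CPM in mutant hearts and 41454 to 45929 CPM in control hearts. With library totals alone, 1 of the 8 was lower and 2 were higher, and the sign of Tnnt2 turned. In that setting 8.11% of all genes tested were called lower and 50.3% higher, against 19.5% and 18.1% with TMM scaling.

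Promoter sequences are shown first because the subunit genes are textbook examples of genes regulated together through shared upstream elements. RefSeq windows running from 250 bases before to 50 bases after each start (GRCm38.p6) were found for 37 of the 44 genes. The core of the antioxidant response element, TGACNNNGC on either strand, to which Nfe2l1 and Nfe2l2 bind as partners of small Maf proteins, occurred in the windows of 6 genes. That is 16.2% of the genes matched, against 14.0% of all 27025 genes with such windows. The 6 matches are printed below with the element in capitals, each read on the strand of its gene. They lie at chr14:54618023-54618052 on the minus strand (Psmb5), chr11:70525338-70525367 on the plus strand (Psmb6), chr14:45329587-45329616 on the plus strand (Psmc6), chr11:107479278-107479300 on the plus strand (Psmd12), chr5:123228149-123228178 on the plus strand (Psmd9) and chr11:30771758-30771787 on the plus strand (Psme4). Where the element lies on the other strand of the gene, the capitals show its complement, which begins GC.
Psmb5: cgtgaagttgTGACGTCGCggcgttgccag
Psmb6: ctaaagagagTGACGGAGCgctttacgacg
Psmc6: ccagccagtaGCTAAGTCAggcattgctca
Psmd12: tctGCTGTGTCAcatttgccccc
Psmd9: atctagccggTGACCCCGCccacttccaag
Psme4: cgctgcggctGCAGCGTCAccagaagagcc

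Other elements were counted in the same windows, on both strands. The GC box GGGCGG occurred in 22 of the 37 matched genes (59.5%), against 38.2% of all genes with windows. A CCAAT box (CCAAT) occurred in 14 genes (37.8%), against 41.1% of all genes. The interferon-stimulated response element, searched as GAAA, 2 bases of any kind and GAAA again, occurred in 4 genes, Psmb3, Psmd4, Psmd9 and Psme1 (10.8%, against 3.99% of all genes). The gamma-activated site, searched as TTCNNNGAA, occurred in 2 genes, Psmb8 and Psmd2 (5.41%, against 9.55% of all genes). A direct repeat of the thyroid hormone receptor half-site, AGGTCA, with 4 bases of any kind between the copies, occurred in 0 of the 37, and in 4 of all 27025 genes. The motifs can overlap one another, and a match is a description of the letters in the window. To show the setting of these elements, the stretch before the annotated exons is given for Psme4, the gene with the largest change below, at chr11:30771525-30771725 on the plus strand, with its GC box (read on the other strand) in capitals. The same stretch is given for Psmb5, a constitutive catalytic subunit, at chr14:54618023-54618245 on the minus strand, with its antioxidant response element in capitals.
Psme4: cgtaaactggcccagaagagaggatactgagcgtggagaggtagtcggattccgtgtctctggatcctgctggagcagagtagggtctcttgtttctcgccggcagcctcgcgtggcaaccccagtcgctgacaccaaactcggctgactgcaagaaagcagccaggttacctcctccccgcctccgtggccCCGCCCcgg
Psmb5: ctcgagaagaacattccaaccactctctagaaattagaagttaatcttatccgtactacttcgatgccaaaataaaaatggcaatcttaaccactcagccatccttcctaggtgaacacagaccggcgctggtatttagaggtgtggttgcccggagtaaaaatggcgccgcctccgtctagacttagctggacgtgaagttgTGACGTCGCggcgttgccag

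Proteasome subunit transcripts were lower in mutant hearts than in control hearts across the core, the base and the lid. Of the 43 genes tested, 35 were lower, 0 were higher and 8 did not pass the test (edgeR's quasi-likelihood F test, Benjamini-Hochberg adjusted p under 0.05 over all 14877 genes tested). Over all genes tested, 19.5% were called lower and 18.1% higher. The median log2 difference was −0.36 over the 43 genes and −0.00 over all genes tested. In 35 of the 43 genes every mutant heart was below every control heart, which held for 25.4% of all genes tested, and in 2 genes (Psmd10 and Psme1) every mutant heart was above, against 24.4% of all genes. Fewer cells of a type and less RNA per cell cannot be told apart in whole hearts.

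The fall covered all 31 constitutive subunits of the core, base and lid, leaving out Psma8, which is a testis form of an alpha subunit. Their log2 differences lay between −0.57 and −0.22 with a median of −0.39, and each of the 31 was called lower. The 3 mutant hearts differed little from each other: the median of the 31 genes was −0.35, −0.43 and −0.37 on the log2 scale relative to the control mean, and all 31 genes were below that mean in each mutant heart. The control hearts lay at −0.02, −0.01 and 0.02 by the same measure. Of the 12 other genes tested, which are the inducible subunits, the base chaperones, the other activators and Psma8, 4 were lower and 8 did not pass. Summed per kilobase, the 43 genes reached 962 ± 18.9 CPM in mutant hearts and 1244 ± 14.8 CPM in control hearts (SD, n = 3 each). As a share of all counts in a library, which amounts to scaling by library totals, they took 0.261% ± 0.0042 in mutant hearts and 0.288% ± 0.0037 in control hearts. As a share of counts outside the mitochondrial genome, they took 0.317% ± 0.0044 in mutant hearts and 0.379% ± 0.0093 in control hearts. Both shares were lower in every mutant heart than in every control heart. Much of the gap in the share of all counts came from Psme4. Without Psme4, that share was 0.244% ± 0.0043 in mutant hearts and 0.256% ± 0.0021 in control hearts. The 31 constitutive subunits took 0.218% ± 0.0035 in mutant hearts and 0.234% ± 0.0017 in control hearts. The groups did not overlap in either set.

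**Figure D1:**
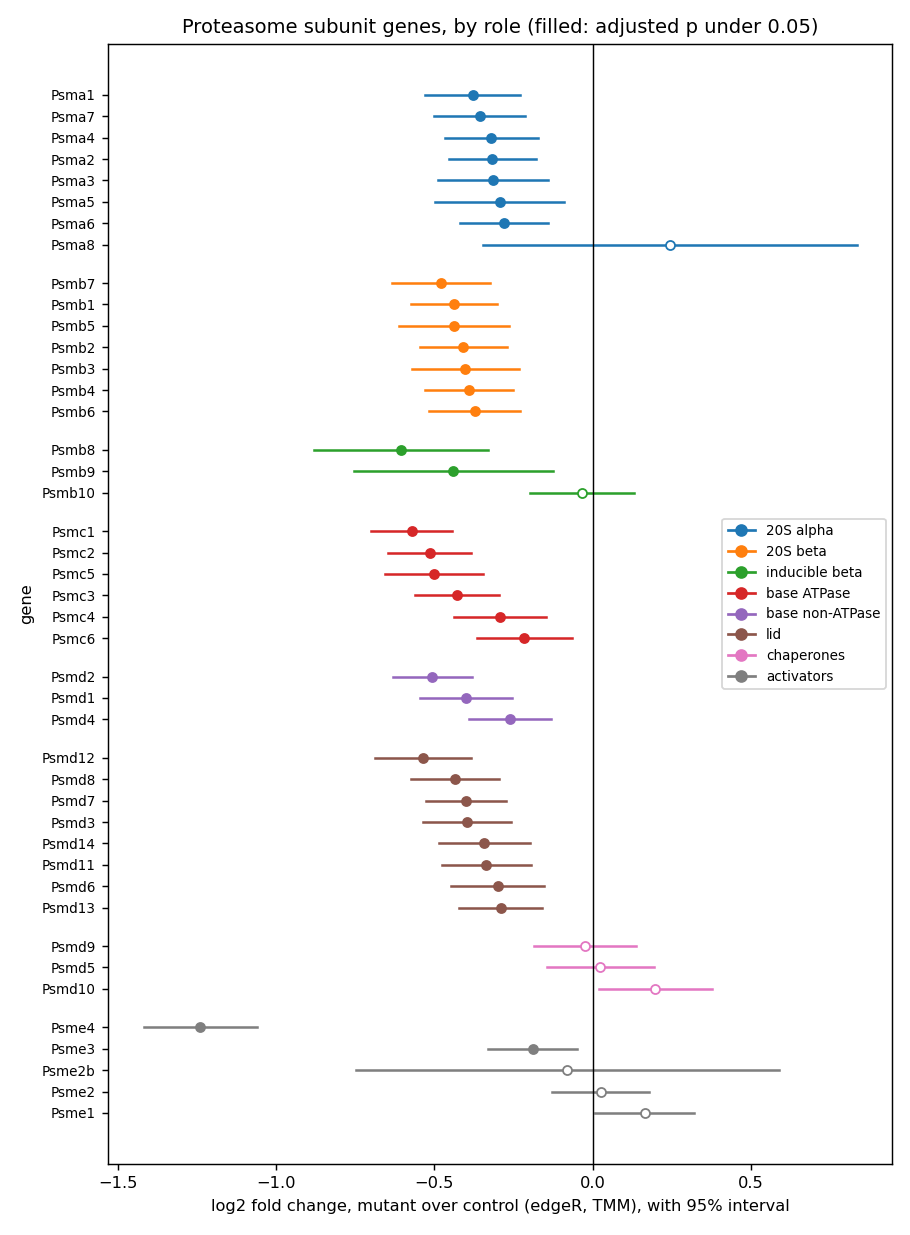
Log2 fold change of each of the 43 proteasome genes tested, mutant over control hearts (horizontal axis, edgeR with TMM scaling), with its 95% interval, in groups by role. Filled points passed the test and open points did not: all 31 constitutive core, base and lid subunits lie left of 0, and Psme4 lies farthest left at −1.24. With library totals in place of TMM scaling, 7 of the 31 constitutive subunits are called lower. Among the filled points, Psma6, Psmc6, Psmd4 and Psme3 then move to the right of 0 without passing the test. Among the open points, Psmb10, Psmd9 and Psme2b also move there, and Psmb10 and Psmd9 are then called higher.

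How many genes pass depends on how the libraries are set equal. With library totals alone, the median of all genes tested was 0.28 on the log2 scale, 50.3% of genes were called higher and 8.11% lower. The proteasome genes then had a median of −0.07, with 9 lower and 6 higher (Psmb10, Psmd5, Psmd9, Psmd10, Psme1 and Psme2), and 7 of the 31 constitutive subunits lower. With mitochondrial transcripts left out of the totals, the median of all genes was 0.17, 35.8% of genes were called higher and 10.9% lower. The proteasome genes had a median of −0.18 there, with 21 lower, 3 higher (Psmd10, Psme1 and Psme2) and 19 of the 31 constitutive subunits lower. The distance between the proteasome median and that of all genes was −0.36 under all 3 scalings. That follows by construction, since a change of scaling shifts all genes nearly alike, and it cannot tell which scaling is right. Whether the RNA content per heart differed between the groups was not tested. Under all 17 settings computed, which include each heart left out in turn, 6 genes were called lower, namely Psmb8, Psmc1, Psmc2, Psmd2, Psmd12 and Psme4.

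**Figure D2:**
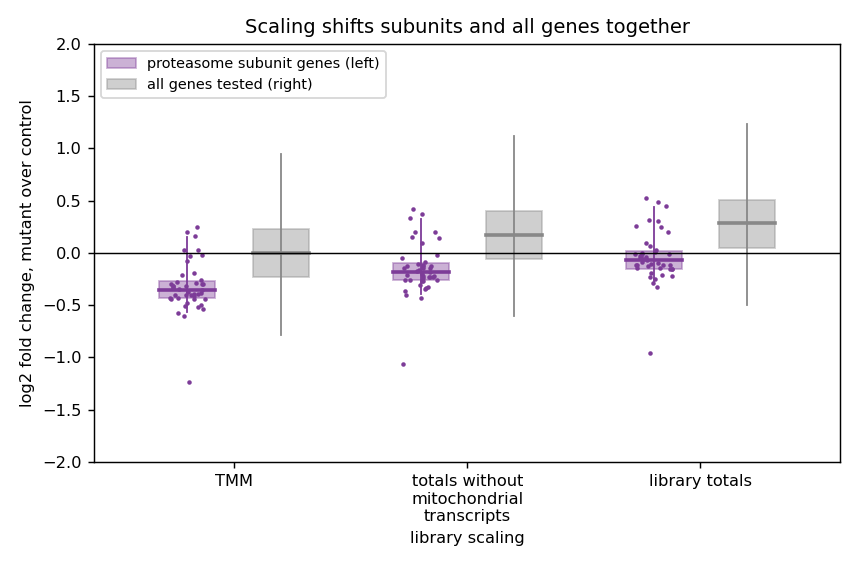
Log2 fold changes, mutant over control hearts, of the proteasome genes (points and left box) and of all genes tested (right box) under 3 ways of setting libraries equal; boxes run from the 25th to the 75th percentile with a line at the median, and whiskers from the 5th to the 95th. Both sets shift together between scalings by construction, so the proteasome median stays 0.36 below that of all genes, while its own value moves between −0.36 with TMM and −0.07 with library totals.

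With TMM scaling, all 7 constitutive subunits of the alpha ring were called lower, and with Psma8 the 8 genes had a median log2 difference of −0.32. With library totals 0 of the 8 were called lower (median −0.03) and the sign of Psma6 turned, and without mitochondrial transcripts in the totals 2 were lower (median −0.14). Psma1 had 89.8, 82.7 and 85.1 CPM in mutant hearts, against 119, 106 and 110.2 CPM in control hearts (log2 −0.38 ± 0.07 SE, edgeR adjusted p = 0.0017). The 3 mutant hearts were all below the 3 control hearts. Psma7 had 83.4, 78.7 and 83.8 CPM in mutant hearts, against 98.6, 110.2 and 106 CPM in control hearts (log2 −0.36 ± 0.06, edgeR adjusted p = 0.00188). For Psma4, the values were 54.6, 49.4 and 49.9 CPM in mutant hearts, against 62.1, 63.4 and 66.7 CPM in control hearts (log2 −0.32 ± 0.07, edgeR adjusted p = 0.00406). Psma2 reached 51.5, 47.7 and 48.3 CPM in mutant hearts, against 63.2, 60.4 and 60.1 CPM in control hearts (log2 −0.32 ± 0.06, edgeR adjusted p = 0.00297). In each of these genes the groups did not overlap with TMM scaling, where 25.4% of all genes tested had every mutant heart below every control heart. The other constitutive alpha subunits, Psma3, Psma5 and Psma6, differed by log2 −0.32, −0.29 and −0.28, and the call of Psma5 was lost when either of 2 mutant hearts (2 or 3) or either of 2 control hearts (1 or 2) was left out, with adjusted p values of 0.0709 to 0.102 in edgeR. Psma8 stayed under 1 CPM in all hearts (0.533 to 0.787 CPM in mutant and 0.407 to 0.714 CPM in control hearts) and its groups overlapped.

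The constitutive beta ring was lower in all 7 of its genes with TMM scaling, with a median log2 difference of −0.41. With library totals 2 of the 7 were lower (median −0.12), and without mitochondrial transcripts in the totals all 7 were (median −0.24). Psmb5, Psmb6 and Psmb7 encode the catalytic subunits, which cleave after hydrophobic, acidic and basic residues in turn. Psmb7 had 48.2, 50.3 and 52.2 CPM in mutant hearts, against 69.1, 74.96 and 65.9 CPM in control hearts (log2 −0.48 ± 0.07, edgeR adjusted p = 5.19e-04). Psmb5 had 16.0, 16.5 and 17.3 CPM in mutant hearts, against 21.7, 24.4 and 21.3 CPM in control hearts (log2 −0.44 ± 0.08, edgeR adjusted p = 0.00176). The values of Psmb6 were 65.4, 61.98 and 66.0 CPM in mutant hearts, against 78.5, 85.9 and 86.0 CPM in control hearts (log2 −0.37 ± 0.06, edgeR adjusted p = 0.00144). All 3 catalytic subunits were thus lower in every mutant heart than in every control heart with TMM scaling. Among the structural beta subunits, Psmb1 fell to 76.0, 71.3 and 69.7 CPM in mutant hearts, against 96.0, 97.5 and 100.3 CPM in control hearts (log2 −0.44 ± 0.06, edgeR adjusted p = 3.79e-04). Psmb2 and Psmb4 differed by log2 −0.41 and −0.39, with 53.0 to 57.5 and 76.3 to 83.5 CPM in mutant hearts, against 71.6 to 75.1 and 101 to 108 CPM in control hearts. Psmb3 differed by log2 −0.40. No groups overlapped in the ring with TMM scaling, where 25.4% of all genes tested had every mutant heart below every control heart.

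The base of the regulatory particle was lower in 9 of 9 genes with TMM scaling, with a median log2 difference of −0.43. With library totals 4 of the 9 were lower (median −0.14), and without mitochondrial transcripts in the totals 6 were (median −0.26). Its 6 ATPases form the ring that unfolds substrates and threads them into the core. Psmc1 had 57.8, 59.2 and 58.9 CPM in mutant hearts, against 88.8, 84.4 and 88.4 CPM in control hearts (log2 −0.57 ± 0.06, 95% interval −0.70 to −0.44, edgeR adjusted p = 5.29e-05), the largest difference among the 31 constitutive subunits. Psmc2 had 64.7, 63.0 and 65.9 CPM in mutant hearts, against 93.5, 88.9 and 94.3 CPM in control hearts (log2 −0.51 ± 0.06, edgeR adjusted p = 1.12e-04). The mutant hearts lay within 3 CPM of each other in both genes and far below the controls. For Psmc5 the values were 52.5, 52.7 and 57.1 CPM in mutant hearts, against 71.6, 78.0 and 80.1 CPM in control hearts (log2 −0.50 ± 0.07). Psmc3 had 114, 116 and 117 CPM in mutant hearts, against 147, 161 and 159 CPM in control hearts (log2 −0.43 ± 0.06). Psmc4 and Psmc6 differed by log2 −0.29 and −0.22. The call of Psmc6 was lost when mutant heart 2, mutant heart 3 or control heart 1 was left out (edgeR adjusted p = 0.0833, 0.0979 and 0.0823), and its sign turned with library totals.

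The non-ATPase subunits of the base include Psmd2 and Psmd1, large scaffolds that bind shuttle factors and ubiquitin-like domains, and Psmd4, a receptor for ubiquitin chains. Psmd2 had 118 CPM in each of the 3 mutant hearts, against 163, 174 and 166 CPM in control hearts (log2 −0.51 ± 0.06, edgeR adjusted p = 9.61e-05). Psmd1 had 93.7, 86.5 and 88.7 CPM in mutant hearts, against 126, 116 and 113 CPM in control hearts (log2 −0.40 ± 0.07, edgeR adjusted p = 0.00109). Psmd4 reached 79.7, 81.4 and 79.8 CPM in mutant hearts, against 93.2, 95.3 and 100.4 CPM in control hearts (log2 −0.26 ± 0.06, edgeR adjusted p = 0.00581), and turned to 0.02 with library totals. With TMM scaling the mutant hearts were below the control hearts in each gene, as in 25.4% of all genes tested.

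The lid was lower in 8 of 8 genes with TMM scaling, with a median log2 difference of −0.37. With library totals 1 of the 8 was lower (median −0.08), and without mitochondrial transcripts in the totals 4 were (median −0.20). Psmd12, a scaffold subunit of the lid, had 73.1, 65.2 and 67.2 CPM in mutant hearts, against 104, 94.8 and 99.5 CPM in control hearts (log2 −0.54 ± 0.07, edgeR adjusted p = 2.24e-04). Psmd8 had 71.7, 69.2 and 68.1 CPM in mutant hearts, against 88.7, 96.9 and 96.9 CPM in control hearts (log2 −0.43 ± 0.06). Psmd7, the partner of the deubiquitinating subunit, had 66.1, 68.6 and 65.5 CPM in mutant hearts, against 88.0, 87.1 and 89.2 CPM in control hearts (log2 −0.40 ± 0.06). Psmd3 had 88.2, 89.0 and 94.7 CPM in mutant hearts, against 113, 123 and 123 CPM in control hearts (log2 −0.40 ± 0.06). With TMM scaling the lowest control heart exceeded the highest mutant heart in all of these genes, as in 25.4% of all genes tested. Psmd14, the deubiquitinating enzyme itself, differed by log2 −0.34 (edgeR adjusted p = 0.00244), with Psmd11, Psmd6 and Psmd13 at −0.34, −0.30 and −0.29.

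**Figure D3:**
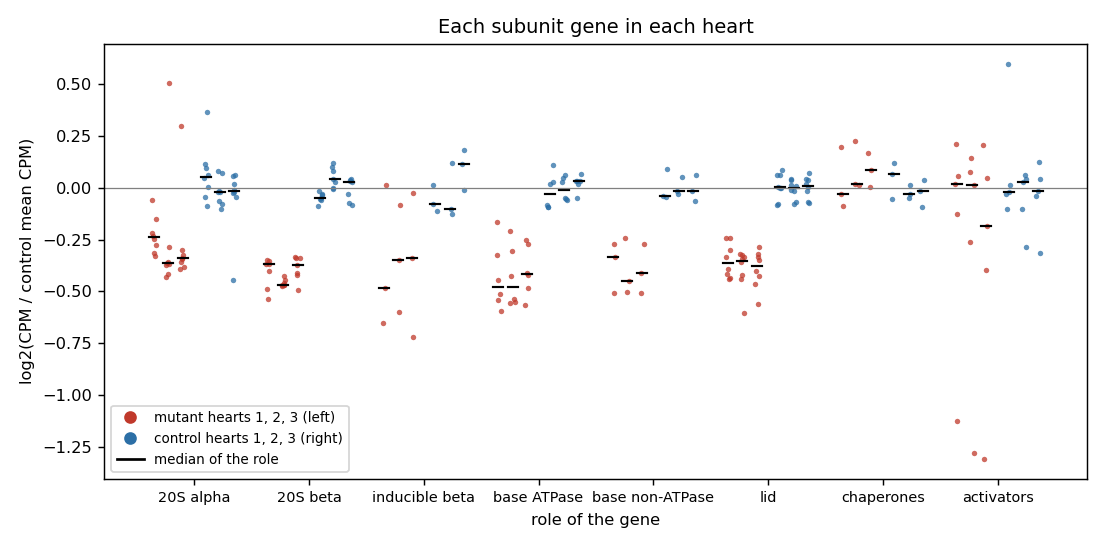
Level of each proteasome gene in every heart on the log2 scale, relative to the mean of the control hearts, in TMM-scaled CPM, by role, with the 3 mutant hearts left of the 3 control hearts and a line at each median. The 31 constitutive subunits of the core, base and lid are below 0 in each mutant heart (the alpha points above 0 are Psma8), with medians of −0.35, −0.43 and −0.37, while the base chaperones and part of the activators show no such shift.

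The genes encoding base assembly chaperones, which join the base only while it is being built, were called in neither direction. None of the 3 passed the test, and their median log2 difference was 0.02. Psmd10 had 10.8, 10.98 and 10.5 CPM in mutant hearts, against 9.82, 9.05 and 9.27 CPM in control hearts (log2 0.20, 95% interval 0.02 to 0.38, edgeR adjusted p = 0.0763), so its groups did not overlap although the test was not passed. Psmd5 had 22.2, 23.0 and 24.1 CPM in mutant hearts, against 24.7, 22.3 and 21.3 CPM in control hearts (log2 0.02, 95% interval −0.15 to 0.19). Psmd9 had 15.4, 16.5 and 16.4 CPM in mutant hearts, against 15.8, 16.5 and 16.8 CPM in control hearts (log2 −0.02, 95% interval −0.18 to 0.14). With library totals all 3 were called higher, including Psmd9, whose sign turned, where 50.3% of all genes tested were called higher.

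Of the 5 alternative activators, 2 were lower and 3 did not pass the test, with a median log2 difference of −0.08. Psme4 encodes PA200, a large single-chain cap of the core that needs no ATP and is known for degrading acetylated histones. The gene spans chr11:30771726-30880361 on the plus strand. Psme4 had 164, 148 and 145 CPM in mutant hearts, against 354, 333 and 390.1 CPM in control hearts. No mutant heart came near the lowest control heart. The log2 difference was −1.24 ± 0.08 (95% interval −1.42 to −1.06), or 2.36-fold lower (edgeR adjusted p = 3.59e-06), the largest among the 43 genes, and it stayed between −1.30 and −0.92 under the 17 settings, always past the threshold. Psme3, the nuclear activator PA28 gamma, had 56.3, 51.4 and 54.2 CPM in mutant hearts, against 60.4, 63.4 and 60.9 CPM in control hearts (log2 −0.19 ± 0.06, edgeR adjusted p = 0.0371). Its call was lost when mutant heart 2 or 3, or control heart 2 or 3, was left out (adjusted p = 0.0579 to 0.143), and its sign turned with library totals.

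Psme1 and Psme2 encode the interferon-inducible PA28 alpha and beta subunits, which together cap the immunoproteasome. Psme1 had 81.7, 74.5 and 81.6 CPM in mutant hearts, against 65.7, 73.7 and 72.7 CPM in control hearts (log2 0.16, 95% interval 0.01 to 0.32, edgeR adjusted p = 0.0929). Its mutant hearts were all above its control hearts, the closest pair being 74.5 and 73.7 CPM. Psme2 was close to level, with 15.6, 15.5 and 15.9 CPM in mutant hearts, against 15.6, 15.7 and 15.0 CPM in control hearts (log2 0.02, 95% interval −0.13 to 0.18). Both were called higher with library totals, as were 50.3% of all genes tested. Psme2b, a near copy of Psme2, stayed at 0.46 to 0.669 CPM in mutant hearts and 0.488 to 0.918 CPM in control hearts, and its groups overlapped. Per kilobase, Psme4 stood at 19.5, 17.5 and 17.2 CPM in mutant hearts, against 42.0, 39.5 and 46.3 CPM in control hearts. Psme1 stood at 36.8, 33.5 and 36.7 CPM per kilobase in mutant hearts, against 29.6, 33.2 and 32.7 in control hearts. By this measure Psme1 was the higher one in each mutant heart, and Psme4 in each control heart. An order within a heart does not depend on the scaling between libraries, but it does depend on the lengths used. Those lengths exceed the longest transcripts of Psme1 and Psme4 (1112 and 6491 bases) by different factors, so which gene is more abundant is not settled. The shift of Psme4 relative to Psme1 between the groups does not depend on length.

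**Figure D4:**
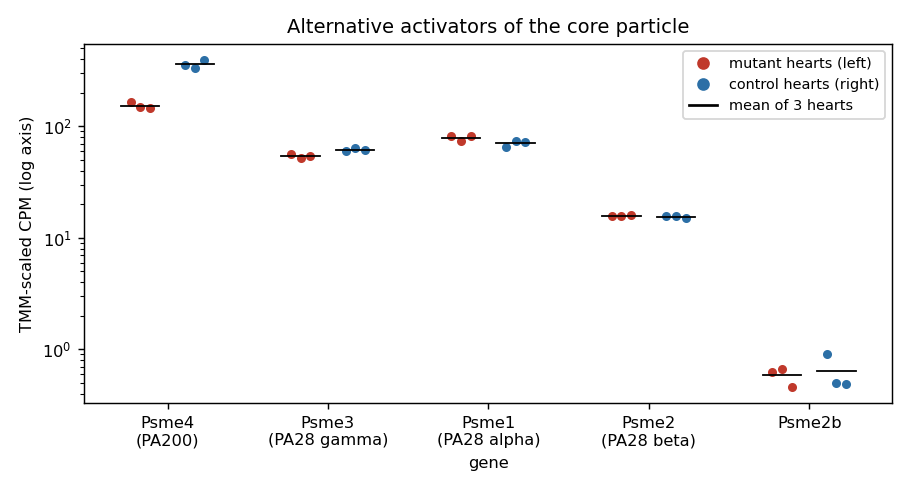
Levels of the alternative activator genes in each heart, in TMM-scaled CPM (vertical log axis), with mutant hearts left of control hearts and a line at each mean. Psme4 lies at 145 to 164 CPM in mutant hearts and at 333 to 390.1 CPM in control hearts, and the other genes differ far less.

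Of the 3 inducible subunits tested, 2 were lower and 1 did not pass. Per kilobase, Psmb8 and Psmb9 were low next to the constitutive subunits they replace. The standing of Psmb10 next to Psmb7 depends on the lengths used, which exceed their longest transcripts (1311 and 1160 bases) by different factors. Psmb8 had 3.95, 3.64 and 3.35 CPM in mutant hearts, against 5.23, 5.15 and 6.26 CPM in control hearts (log2 −0.61 ± 0.12, edgeR adjusted p = 0.00363). Psmb9 had 1.91, 2.36 and 2.37 CPM in mutant hearts, against 3.04, 2.75 and 3.25 CPM in control hearts (log2 −0.44 ± 0.14, edgeR adjusted p = 0.0333). The call of Psmb9 was lost without mutant heart 1 or 2 or control heart 1 or 3 (edgeR adjusted p = 0.0638 to 0.0977). Psmb10 had 31.4, 29.4 and 30.6 CPM in mutant hearts, against 28.8, 33.8 and 30.9 CPM in control hearts (log2 −0.03, 95% interval −0.20 to 0.13), with overlapping groups. It was called higher with library totals, as were 50.3% of all genes tested. Of 10 macrophage markers, 7 were called lower and 0 higher with TMM scaling, where 19.5% of all genes tested were called lower. Their summed level was 88.9 to 93.1 CPM in mutant hearts and 135 to 145 CPM in control hearts. With library totals 6 of the 10 were lower, where 8.11% of all genes tested were called lower. The part of macrophages in these results was not tested. Lymphocyte markers summed to 4.69 to 6.61 CPM in mutant hearts and 7.34 to 8.01 CPM in control hearts, with Ptprc the only one of the 4 tested that was called lower, a call lost with library totals, and Cd8a and Nkg7 at 0 in mutant heart 3.

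Set against its partner within each heart, which removes the scaling between libraries, the balance of inducible to constitutive subunits was compared for the 3 pairs per kilobase. The height of each ratio depends on the gene lengths used, while the log2 difference between groups does not. Psmb10 reached 131, 117 and 118 per 100 of Psmb7 in mutant hearts, against 83.6, 90.6 and 93.9 in control hearts. The mutant values were all above the control values, with a log2 difference of 0.45, but 3 hearts against 3 cannot go below p = 0.1 in the two-sided exact permutation test, which is the p obtained (0.30 adjusted over the 3 pairs). Psmb7 shares 35.1% of its longest transcript with Nek6 on the opposite strand, which the library kit does not separate. Nek6 had 725, 846 and 819 counts in mutant hearts, against 413, 632 and 523 counts in control hearts. The effect of this overlap on the ratio was not tested. Psmb8 reached 7.86, 7.04 and 6.16 per 100 of Psmb5 in mutant hearts, against 7.69, 6.72 and 9.35 in control hearts, a log2 difference of −0.17 (exact p = 0.5, adjusted 0.6). Psmb9 reached 1.498, 1.95 and 1.84 per 100 of Psmb6 in mutant hearts, against 1.98, 1.64 and 1.94 in control hearts, a log2 difference of −0.07 (exact p = 0.6, adjusted 0.6). The groups overlapped in these last pairs.

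**Figure D5:**
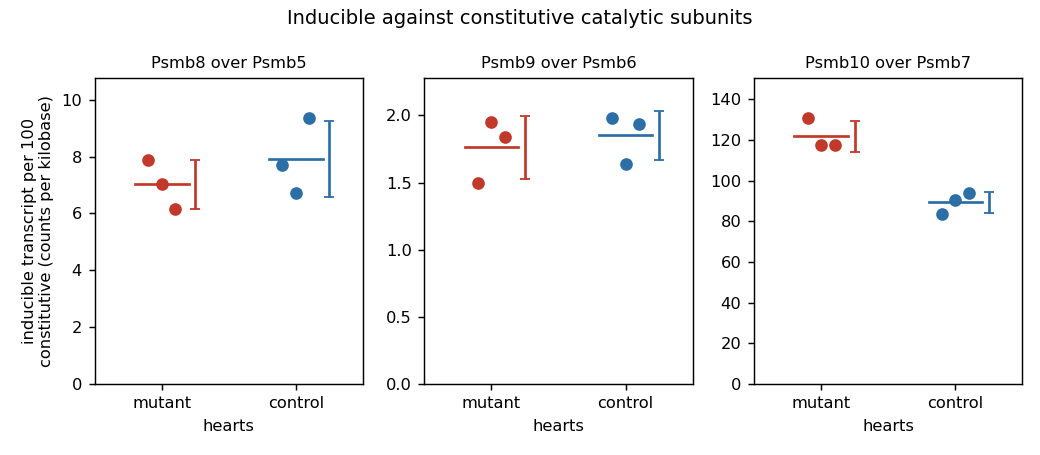
Level of each inducible catalytic subunit per 100 of the constitutive subunit it replaces (vertical axis, counts per kilobase) in each heart, mutant left of control, with the mean (line) and SD (bar). The values of Psmb10 over Psmb7 are 117 to 131 in mutant hearts and 83.6 to 93.9 in control hearts, and the groups of the other pairs overlap. Psmb7 overlaps Nek6 on the opposite strand, so its reads cannot be fully separated. The height of each ratio depends on the gene lengths used, while the log2 difference between groups does not.

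The subunit genes were far from equal in level, although the complex holds them in fixed proportions. Per kilobase, the 14 constitutive core genes ranged between 4.19 CPM (Psma3) and 77.3 CPM (Psma6) in mutant hearts, and between 5.22 CPM (Psma3) and 94.0 CPM (Psmb1) in control hearts. These levels depend on the lengths used, which can exceed any single transcript: that of Psmb3 exceeds its longest transcript of 766 bases. The genes at the low end, Psma3, Psmb3 and Psma5, also have 34.4%, 80.7% and 76.5% of their transcript in near-identical copies elsewhere in the annotation (at least 95% identity over at least 75 bases). Reads can be lost or shared there, and their levels are uncertain for both reasons. Psmc1, Psmd2, Psma4, Psmb5, Psmd11, Psme2 and Psme2b have 82.0%, 98.2%, 76.7%, 88.4%, 52.7%, 82.5% and 94.9% in such copies and are uncertain as well. Of the 9 genes with at least 50% of the transcript in copies, 7 were lower with TMM scaling, with a median log2 difference of −0.34. Of the 23 genes with no such copy and no exon overlap, 19 were lower with TMM scaling, with a median of −0.34. Over all genes tested, 19.5% were called lower. The part of shared reads in these differences was not tested. The library kit does not mark strand, so genes that overlap another on the opposite strand cannot be fully separated: the share of exon bases overlapped was 25.5% for Psmd9, 14.7% for Psmb8, 11.8% for Psmb7 and 10.1% for Psmd13.

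Genes that work with the proteasome were called lower more often than higher with TMM scaling, but not with library totals. Of 31 partner genes listed by role, 12 were called lower and 1 higher with TMM scaling (median log2 difference −0.17), where 19.5% of all genes tested were lower and 18.1% higher. With library totals 1 was lower and 13 were higher (median 0.11), where 8.11% of all genes were lower and 50.3% higher. Among the factors bound to the regulatory particle, 5 of 8 were lower and 0 higher. They include Ecpas, a scaffold of the 26S form (log2 −0.42), the ubiquitin receptor Adrm1 (−0.30), its partner deubiquitinase Uchl5 (−0.32), the thioredoxin-like Txnl1 (−0.33) and the small lid subunit Sem1 (−0.19). Of the 4 genes of the Vcp segregase, which extracts ubiquitylated proteins, 3 were lower. Vcp had 48.8, 49.7 and 50.8 CPM in mutant hearts, against 69.0, 66.4 and 70.9 CPM in control hearts (log2 −0.47 ± 0.06, edgeR adjusted p = 2.31e-04), and its cofactors Nploc4 and Ufd1 differed by −0.34 and −0.24. Pomp, which helps to mature the core, was the only 1 of 5 core assembly chaperones called lower (−0.36). Among the shuttle factors, Zfand5 was lower (−0.23). Uba1, the main ubiquitin-activating enzyme, was higher (0.18, edgeR adjusted p = 0.0441). Its call was lost when mutant heart 2 or 3, or any control heart, was left out (edgeR adjusted p = 0.0575 to 0.164). The call of Sem1 was lost when mutant heart 2, control heart 1 or control heart 2 was left out (edgeR adjusted p = 0.129, 0.0525 and 0.0996). Adrm1, Zfand5 and Ufd1 also lost their calls without 1 or more of the hearts. With library totals the signs of Sem1, Ufd1 and Zfand5 turned.

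Genes of the Nfe2l1 and Nfe2l2 pathway, known regulators of subunit transcription, were lower in 4 of 8 and higher in 0 with TMM scaling, against 19.5% of all genes lower. With library totals 0 of the 8 were lower and 1 was higher, namely Nfe2l2, with a median of 0.05 in place of −0.23. In that setting 8.11% of all genes tested were called lower and 50.3% higher. Nfe2l1 had 412, 431 and 439 CPM in mutant hearts, against 514, 563 and 536 CPM in control hearts (log2 −0.33 ± 0.06, edgeR adjusted p = 0.00266). Its groups did not overlap. Nfe2l2 had 84.2, 84.0 and 78.0 CPM in mutant hearts, against 84.0, 82.0 and 96.0 CPM in control hearts and did not pass the test (log2 −0.09, edgeR adjusted p = 0.379). Keap1, the adaptor that holds Nfe2l2 for degradation, and the small Maf gene Mafg differed by −0.30 and −0.33, and the repressor Bach1 by −0.23, with a sign that turned with library totals. Among 7 tested targets of Nfe2l2 outside the proteasome, 3 were lower and 0 higher, again against 19.5% of all genes lower, and with library totals 1 was lower and 1 higher. The antioxidant enzyme gene Srxn1 had 8.52, 6.22 and 6.79 CPM in mutant hearts, against 13.8, 13.8 and 14.7 CPM in control hearts (log2 −0.98 ± 0.12, edgeR adjusted p = 1.63e-04), and Gsta4 and Txnrd1 differed by −0.42 and −0.36.

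Interferon and antigen presentation genes share inducers with the immunoproteasome, and their counts with TMM scaling stand against the 19.5% of all genes tested that were called lower. Of 9 interferon signalling and response genes, 3 were lower and 0 higher: Ifit3 (log2 −0.70), Ifit1 (−0.62) and Gbp2 (−0.42). Of 10 class I antigen presentation genes, H2-D1 (−0.43), H2-K1 (−0.41) and B2m (−0.22) were lower and 0 were higher. With library totals 1 of the 9 was lower and 1 higher, and 0 of the 10 were lower and 1 higher, and the signs of B2m and Tap1 turned. Tap1, whose promoter region is shared with Psmb9, averaged 8.89 CPM in mutant hearts and 9.42 CPM in control hearts and did not pass the test (log2 −0.09, edgeR adjusted p = 0.608). Endothelial markers were lower in 6 of 8 genes and fibroblast markers higher in 3 of 8. Their summed levels were 1349 to 1454 and 3018 to 3379 CPM in mutant hearts, against 1609 to 1725 and 2635 to 2977 CPM in control hearts. With library totals, 0 of the 8 endothelial markers were lower and 8 of the 8 fibroblast markers higher. In that setting 8.11% of all genes tested were called lower and 50.3% higher. The part of cell composition in the proteasome results was not tested. Erythroid markers were called in 0 of 6 genes, and of 6 smooth muscle markers Cnn1 was higher and Rgs5 lower, Rgs5 with a sign that turned with library totals.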

How the data were processed

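Per the labels' protocols, total RNA from flash-frozen hearts was extracted with Trizol and made into Illumina TruSeq v2 libraries. Per the submitters' processing notes, the authors used cutadapt 1.9, STAR 2.5.2b and featureCounts 1.5.1 on mm10; how reads with several matches were counted is not given in the sources used here. Deposited by the authors were raw counts per gene and RPKM values for each of 6 hearts. From the deposited counts, edgeR 4.0.16 (R 4.3.3) gave TMM-scaled CPM, filterByExpr's default filter and the quasi-likelihood F test of mutant against control, with Benjamini-Hochberg adjustment over 14877 genes. SEs were derived from the F statistic, and intervals are 95%. The deposited RPKM values served for alternatives in limma 3.58.1, on log2(RPKM + a pseudocount), and for the gene length behind each level per kilobase. That length was close to the annotated exon bases of a gene (median ratio 1.01), which can exceed the length of any single transcript. DESeq2 1.42.0 was another alternative.

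Members were found by symbol. Values in every heart are given for up to 4 called genes with the smallest adjusted p in each role, and for the catalytic pairs. From each list of other genes, up to 4 called genes with the smallest adjusted p are named, and some of these are not reported here. Psma8, the base chaperones and the uncalled activators were added after their values were seen, as were Sem1, Nfe2l2, Tap1 and the marker genes singled out. The members and lists were chosen with earlier results of these data known. Each pup gave 1 library, and preparation batches were not analysed here.

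The test was checked on simulated data for this comparison, with 14877 genes in the fit. It recovered 18%, 66%, 84% and 94% of genes changed 1.25-, 1.5-, 2- and 4-fold, and 7.75% of its calls were false. The simulation changed 50 genes at each fold, in random directions, and gave 142 calls. The real comparison gave 5586 calls that depend on the scaling, so these rates need not hold for it.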

Additional observations from a re-analysis of the deposited data

How the results depend on the processing

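Of the 43 proteasome genes tested, 35 were lower with RLE size factors, 34 with DESeq2, 35 without the count filter and 33 with median-centred log2(RPKM + 0.1), which, like library totals without mitochondrial transcripts, was chosen after seeing the data. Library totals gave 9 lower and 6 higher, with a median of −0.072, 7 constitutive subunits lower, and 7479 genes higher and 1207 lower over all genes tested. Totals without mitochondrial transcripts gave 21 lower, 3 higher, a median of −0.18, 19 constitutive subunits lower, and 5331 genes higher and 1629 lower over all. RPKM, which also divides by library totals, gave 8, 6 and 11 genes lower (pseudocount 1, pseudocount 0.1, and pseudocount 1 without a filter) and 6 higher each. The medians were −0.066, −0.072 and −0.066, the constitutive subunits lower were 6, 4 and 9, and over all genes 7072, 6892 and 6891 were higher and 1150, 1124 and 1157 lower.

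Among the proteasome genes and the other genes for which every setting was computed, signs turned for 16 with library totals. These were B2m (0.066), Bach1 (0.059), Nfe2l2 (0.20), Psma6 (0.0049), Psmb10 (0.25), Psmc6 (0.069), Psmd4 (0.023), Psmd9 (0.26), Psme2b (0.20), Psme3 (0.095), Rgs5 (0.019), Sem1 (0.094), Tap1 (0.20), Tnnt2 (0.24), Ufd1 (0.041) and Zfand5 (0.051). With log2(RPKM + 0.1) they had 0.066, 0.057, 0.20, 0.0039, 0.25, 0.069, 0.022, 0.25, 0.19, 0.093, 0.018, 0.091, 0.19, 0.25, 0.039 and 0.051 in that order, and with log2(RPKM + 1), with or without a filter, 0.065, 0.052, 0.19, 0.0039, 0.24, 0.068, 0.022, 0.18, 0.079, 0.089, 0.017, 0.089, 0.13, 0.25, 0.036 and 0.048. Without mitochondrial transcripts in the totals, Nfe2l2, Psmb10, Psmd9, Psme2b, Tap1 and Tnnt2 had 0.082, 0.14, 0.15, 0.091, 0.089 and 0.13.

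Leaving out each heart in turn gave 31 to 34 proteasome genes lower, 0 higher, 29 to 31 constitutive subunits lower and medians of −0.38 to −0.34. Over all genes, 2039 to 2661 were higher and 2234 to 2856 lower. Signs turned in this way for Psmb10 (between −0.089 and 0.028), Psmd5 (−0.021 to 0.082), Psmd9 (−0.052 to 0.0076), Psme2b (−0.24 to 0.25), Tap1 (−0.17 to 0.012) and Tnnt2 (−0.14 to 0.038), none of which passed the test. The difference in the ratio of Psmb9 to Psmb6 ranged between −0.16 and 0.038, that of Psmb8 to Psmb5 between −0.28 and −0.041, and that of Psmb10 to Psmb7 between 0.40 and 0.48. Among the other named genes, Adrm1, Sem1, Ptprc, Rgs5, Zfand5, Ufd1, Uba1, Bach1 and B2m lost their call without 1 or more of the hearts.

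With the replicate number as a block, 35 proteasome genes were lower and 0 higher, and 3090 genes were higher and 3229 lower over all genes tested. Hearts of the same number deviated together with correlations of 0.15, −0.05 and 0.10, so the numbers were not taken to pair hearts, and not every heart correlated best with its own number. Precision is limited by 3 hearts per group and, for Psma8 and Psme2b, by levels under 1 CPM.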

Other observations

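Gm5422, a transcribed pseudogene annotated as a near copy of Psmd2, had 87, 83 and 146 counts in mutant hearts and 22, 31 and 20 counts in control hearts, opposite in direction to Psmd2. How reads were shared between the 2 genes was not tested.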
